A study of Gallus gallus with 8 samples.

Results

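The genes described here are those of striated muscle and of the wider contractile apparatus, followed by library through the developing chicken retina and in the cornea. They were chosen by name: a row of the expression table was taken when its symbol fell in the myosin heavy chain (MYH), myosin light chain and light chain kinase (MYL, MYLK), troponin (TNNC, TNNI, TNNT), tropomyosin (TPM), myosin binding protein C (MYBPC), calsarcin (MYOZ), myomesin (MYOM), alpha-actinin (ACTN) or leiomodin (LMOD) families, or was a named muscle actin, desmin, a myogenic regulator or a muscle calcium store or membrane gene. The only measured value in the choice was that rows at 0 in every library were skipped. Of 16700 rows, 53 matched and 52 had reads. The remaining match, ACTN4, lies in a run of 1155 consecutive rows of which 1153 are at 0, so its 0 is not a measure of expression. The names also take in genes that muscle does not own: 41 of the 52 belong to striated muscle (4 myogenic regulators, 10 thin filament, 19 thick filament, 5 Z disc and intermediate filament, 3 calcium store and membrane genes), 3 are tropomyosins with muscle and non-muscle products, and 8 act in smooth muscle or in non-muscle cells. ACTA2, TTN, NEB, CKM, CASQ1, TPM2, TNNI3 and TNNT1 were not analysed here.

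Poly(A) RNA from whole retina of untreated Cobb/Hubbard F1 hybrid chicken embryos was sequenced at embryonic day 8 (E8), E16 and E18, and from whole cornea at E18, with 2 libraries in each of the 4 groups. The eye was opened along the limbus, the ring where cornea meets sclera, and the pigment epithelium was detached from the retina. No cornea was sampled at E8 or E16, so the age of the cornea cannot be varied in these data. The unit below is the normalized count, which is the number of reads on a gene divided by a size factor for the library, and pairs of values are replicates 1 and 2 of a group.

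A striated muscle fibre contracts when myosin heads of the thick filament pull on actin of the thin filament. The thin filament is switched on by calcium through troponin C, which releases the block that troponin I, troponin T and tropomyosin hold in place. Thin filaments are anchored at the Z disc by alpha-actinin, thick filaments at the M band by myomesin, and calcium is held between contractions in the sarcoplasmic reticulum bound to calsequestrin. The fate itself is set by 4 related transcription factors, with MYF5 and MYOD1 acting in precursors, MYOG at differentiation and MYF6 in maturing fibres. In mammals the muscles inside the eye are smooth, while the iris and ciliary muscles of birds are largely striated. Non-muscle cells use other members of the same families for adhesion, division and shape.

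Depth ranged from 15662779 to 45670254 reads on genes, so that 1 read was worth 0.586 to 1.84 normalized counts, and 13194 genes passed a filter on low counts. The tissue labels held against their markers: 10 of 10 cornea markers were higher in cornea and 9 of 9 markers of retinal neurons and glia were lower. Summed over a list, reads are given as RPM, the reads on its genes scaled to 1000000 reads on all genes. Cornea markers summed to 211 to 352 RPM in the 6 retina libraries and at 47840 and 45020 in the cornea libraries. Retinal markers summed to 661 to 6643 in retina and to 51.0 and 103.5 in cornea. Whole tissue was sequenced, so fewer cells of a type and less RNA per cell cannot be told apart in any result here.

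The 41 striated genes together took a small part of each library, and a larger part in cornea. Their summed level was 166.5 and 182 RPM in E8 retina, 310.3 and 355 in E16 retina, 319 and 309.9 in E18 retina, and 1264 and 1058 in E18 cornea. That is 0.0167% of the reads on genes in the lowest library and 0.126% in the highest. Both cornea libraries lay above all 6 retina libraries, and both E8 libraries lay below the 4 later retina libraries. In cornea 41 of the 41 genes had more than 3 reads in each library, against 24 to 31 in the retina libraries. The striated gene with the most reads, which were not divided by gene length, was MYL4 in the 4 libraries of E8 and E16 retina and ACTN2 in both E18 retina libraries, and in cornea it was ACTA1 in replicate 1 and MYL2 in replicate 2.

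**Figure D1:**
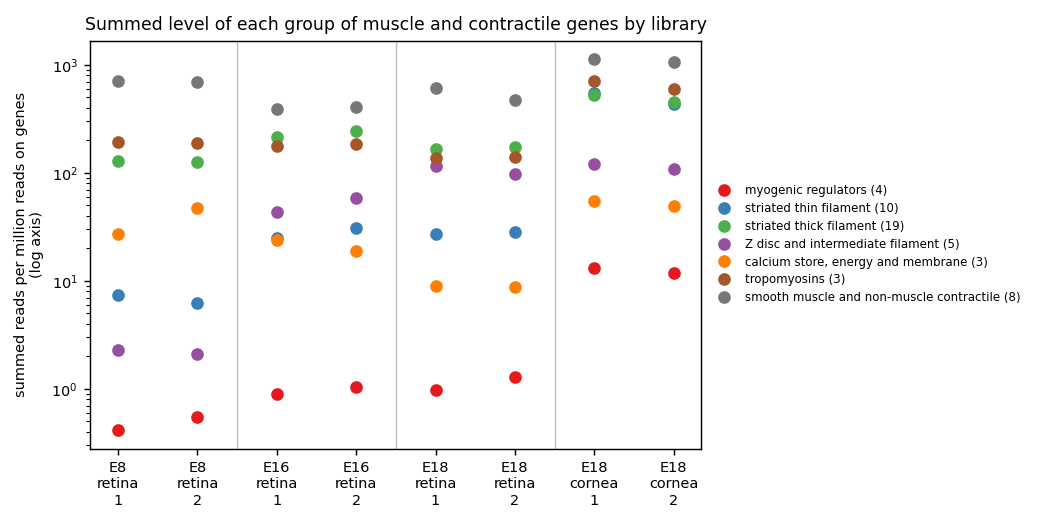
Summed RPM (log axis) for each group of muscle and contractile genes, with 1 point per library and the number of genes in parentheses. Thin filament genes sum to 6.20 to 31.2 in the 6 retina libraries and to 550.0 and 437 in cornea, while Z disc and intermediate filament genes, mostly ACTN2, reach 116 and 98.1 in E18 retina and 120.3 and 109 in cornea.

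The groups did not follow a common course. Myogenic regulators summed to 0.416 to 1.28 RPM in retina and to 13.3 and 11.9 in cornea. Thin filament genes stood at 7.34 and 6.20 in E8 retina, 24.8 and 31.2 in E16, 27.3 and 28.4 in E18 and 550.0 and 437 in cornea. These groups separated the tissues most widely. Thick filament genes summed to 126 to 245 in retina and to 526 and 450 in cornea. The Z disc group climbed in retina from 2.30 and 2.10 at E8 to 43.7 and 58.5 at E16 and 116 and 98.1 at E18, and was at 120.3 and 109 in cornea. ACTN2 carried that sum: without it the Z disc group was at 4.34 and 3.58 in E18 retina and at 49.3 and 37.2 in cornea. The calcium store and membrane genes summed to 27.5 and 47.3 at E8, 9.07 and 8.80 at E18 and 54.5 and 49.8 in cornea, a fall in retina that came from MLIP alone: without it the sum was 1.34 and 0.627 at E8, 8.08 and 8.03 at E18 and 48.1 and 44.9 in cornea.

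The comparison of E18 cornea with E18 retina asks which of these genes set the reference tissue apart from the retina of the same age. Of the 52 genes, 50 passed the filter on low counts (MYH1C and MYH1E did not), and 43 of the 50 were called at an adjusted p under 0.05 by limma, 38 higher and 5 lower in cornea. Among all 13194 genes tested 71.4% were called, 36.9% higher and 34.5% lower. The median log2 fold change was 3.06 over the 50 genes and 0.06 over all genes tested. Of the 50, 11 passed the filter through the cornea libraries alone (LMOD2, MYF5, MYF6, MYL3, MYLK2, MYLK4, MYOG, MYOZ3, TNNC2, TNNT2 and TNNT3) and so had to be higher there, and no p is given for them in this comparison. Of the other 39, 27 were higher, 5 lower and 7 not called, with a median log2 fold change of 2.74. By library, both cornea values lay above all 6 retina values for 38 of the 52 genes (73.1%) and for 28.9% of all genes tested, and below all 6 for MYH10 and MYL4. The 38 include all of the 11 but MYLK2. They also include MYH1C and MYH1E, which were not tested, so the shares are not like for like.

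**Figure D2:**
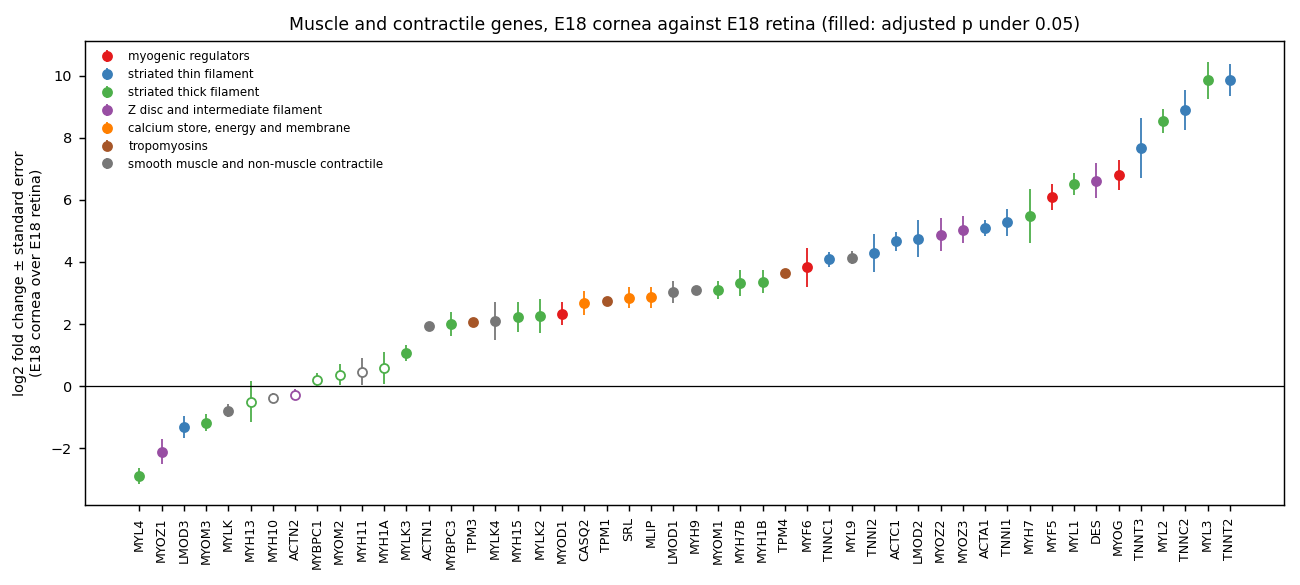
Log2 fold change of E18 cornea over E18 retina for the 50 muscle and contractile genes tested, in rising order, with the limma standard error as bars, colours for the gene group and filled points for adjusted p under 0.05. The 5 filled points below 0 are MYL4, MYOZ1, LMOD3, MYOM3 and MYLK, and the largest values belong to TNNT2 and MYL3. Filled points include the 11 genes that passed the filter through cornea alone, TNNT2 and MYL3 among them. Those 11 had to be higher in cornea, so their fill is not a test result.

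All 4 myogenic regulators were higher in cornea than in E18 retina, and of these MYOD1 alone passed the filter without the cornea libraries. MYOG, which drives myoblasts into differentiation, was at 111 and 112 normalized counts in cornea, at 1.05 and 0 in E16 retina and at 0 in the other 4 retina libraries. MYF5, which marks muscle precursors, was at 66.4 and 67.6 in cornea and at 0 in every retina library. Neither gene had a read in E18 retina. Set against a floor of 3 reads in the shallower E18 retina library, MYOG was at least 29.6-fold higher and MYF5 at least 17.8-fold higher in cornea. MYF6, expressed in maturing fibres, was at 73.8 and 70.0 in cornea and at 2.34 and 0 in E8, 1.05 and 0 in E16 and 3.76 and 4.54 in E18 retina. MYOD1, the other early regulator, was at 133 and 123 in cornea, and unlike the rest it was read in every retina library, at 8.79 and 14.7 in E8, 19.97 and 25.3 in E16 and 21.3 and 28.01 in E18. Its log2 fold change between the E18 tissues was 2.34 (SE 0.36, limma adjusted p = 0.000367). MYF6 and MYF5 are next to each other in the chicken RefSeq annotation (GRCg7b).

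Of the 10 thin filament genes 9 were higher in cornea and 1, LMOD3, was lower, with a median log2 fold change of 4.92. Of all genes tested, 36.9% were higher and 34.5% lower. Among the 9, 4 (LMOD2, TNNC2, TNNT2 and TNNT3) are of those that passed the filter through cornea alone. ACTA1, the skeletal alpha-actin, was at 17.0 and 25.5 normalized counts in E8 retina, 129 and 139 in E16, 106 and 117 in E18, and 4366 and 3382 in cornea. ACTC1, the cardiac alpha-actin that embryonic skeletal muscle also uses, was at 109 and 56.8 in E8, 119.8 and 126 in E16, 124 and 132 in E18, and 3684 and 2881 in cornea. The actins were thus read in retina at a fairly even level from E16 on and in cornea at 34.2-fold and 25.3-fold of the E18 retina level (limma adjusted p = 3.74e-07 and 1.45e-06, on the log2 scale after adding 1). Sarcomeric actins are near-identical in coding sequence, so the split of reads between ACTA1 and ACTC1 is uncertain.

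The troponins of slow and of fast muscle were both present in cornea. For the slow and cardiac set, TNNC1, the calcium sensor, was at 34.6 and 51.0 in E8, 83.0 and 84.2 in E16, 133 and 129 in E18 retina and 2069.8 and 2397 in cornea. TNNI1, the slow inhibitory subunit, was at 0.586 and 0 in E8, 10.5 and 4.09 in E16, 45.1 and 43.2 in E18 retina and 1937 and 1569 in cornea. TNNT2, the cardiac and embryonic tropomyosin-binding subunit, had 1 read among the E18 retina libraries, and its normalized count was 1479 and 1312 in cornea against at most 1.25 in any retina library. The read ratio of TNNT2 between cornea and E18 retina was 2922 (95% counting interval 524 to 1.155e+05). TNNC1 and TNNI1 were read in every E16 and E18 retina library, and TNNT2 in 1 of the 4.

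For the fast set, TNNC2 was at 0 to 4.20 in the retina libraries and at 1015 and 1082 in cornea, with at most 5 reads in any retina library. TNNI2 was at 2.93 and 15.7 in E8, 23.1 and 37.6 in E16, 16.3 and 13.6 in E18 retina and 321 and 303 in cornea. TNNT3 was at 23.4 and 0.980 in E8, 6.31 and 3.27 in E16, 2.51 and 1.51 in E18 retina and 716 and 517 in cornea, a read ratio of 316 (95% counting interval 123 to 1163) to E18 retina. The E8 replicates of TNNI2 and TNNT3 disagreed in opposite directions, so their E8 level is poorly fixed. In the annotation TNNI1 and TNNT2 have 1 gene, LAD1, between them, and TNNT3 and TNNI2 have 3. LMOD2, a leiomodin that lengthens thin filaments in heart and skeletal muscle, was at 0 to 6.06 in retina and at 181 and 133 in cornea.

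**Figure D3:**
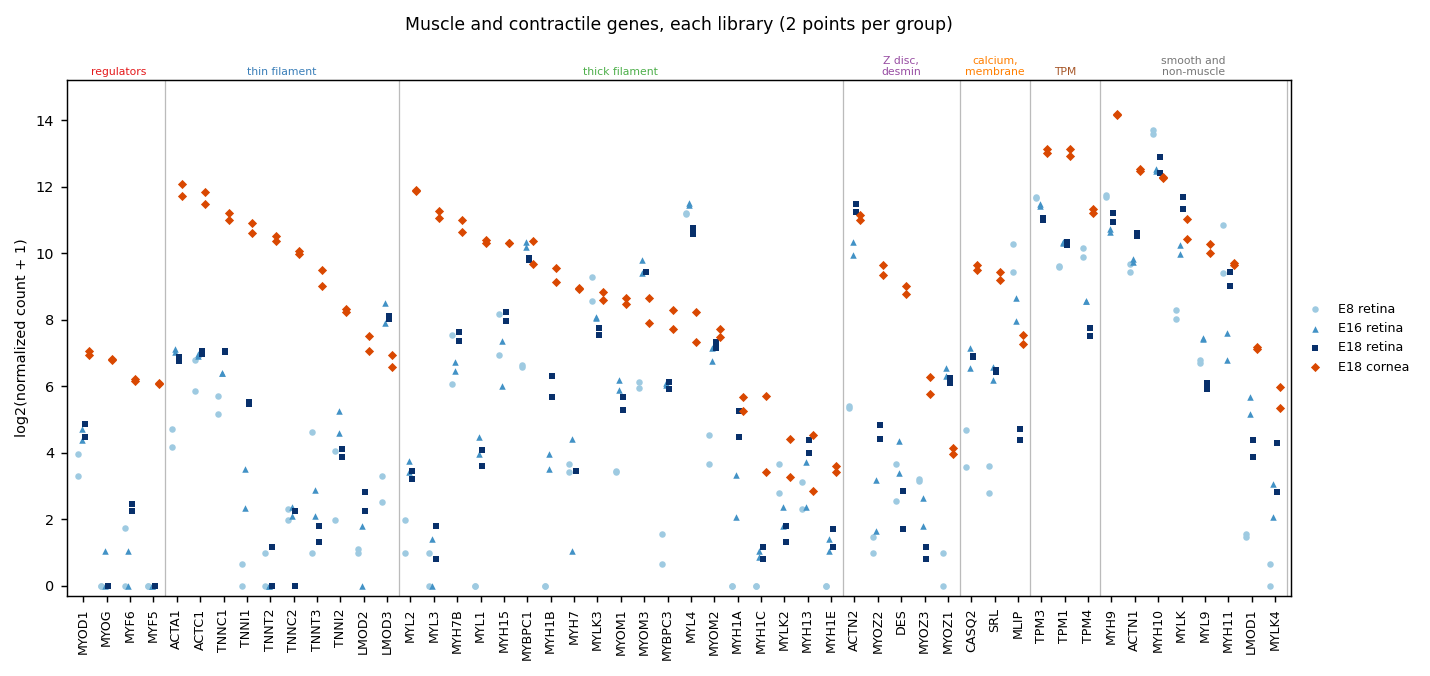
Log2(normalized count + 1) of the 52 muscle and contractile genes in each library, with 2 points per group, grouped by role and ordered by the cornea mean. Cornea points lie above all retina points for 38 genes, among them MYL2 at 3763 and 3834 normalized counts, and below all of them for MYL4 and MYH10.

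Thick filament genes were more divided, with 11 higher, 2 lower and 4 not called of 17 tested, and a median log2 fold change of 2.21. Among all genes tested 36.9% were higher and 34.5% lower. The higher genes include MYL3 and MYLK2, which passed the filter through cornea alone. MYL2, the regulatory light chain of slow and ventricular muscle, was at 2.93 and 0.980 in E8, 12.6 and 9.80 in E16, 10.02 and 8.33 in E18 retina and 3763 and 3834 in cornea (log2 fold change 8.55 between the E18 tissues, SE 0.39, limma adjusted p = 2.28e-07). MYL3, the essential light chain of the same fibres, was at 0 to 2.51 in retina and at 2118 and 2487 in cornea, a read ratio to E18 retina of 1652 (95% counting interval 565 to 8017). MYL1, the essential light chain of fast fibres, was at 0 in both E8 libraries, 14.7 and 21.2 in E16, 11.3 and 15.9 in E18 retina and 1358 and 1259 in cornea. All 3 light chains were low in retina and among the most strongly raised genes in cornea. MYL4, the atrial and embryonic essential light chain, had the opposite pattern and was at 2301 and 2391 in E8, 2800.2 and 2932 in E16, 1527 and 1743 in E18 retina and 159 and 303 in cornea. Its log2 fold change was -2.89 (SE 0.26, limma adjusted p = 1.02e-05), and the lowest retina library lay above both cornea libraries.

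Among the heavy chains outside the fast cluster, MYH7, the slow and beta-cardiac chain of mammals, was at 11.7 and 9.80 in E8, 1.05 and 20.4 in E16, 10.02 and 9.84 in E18 retina and 498 and 483 in cornea. MYH7B, a slow-tonic chain, was at 187 and 66.6, 87.2 and 105, and 164 and 196 at the retinal stages in order of age, and at 2051 and 1604 in cornea. MYH15, the ventricular chain of chicken, was at 123 and 289, 63.1 and 164, and 298 and 248 in retina and at 1256 and 1278 in cornea. All 3 rose from E18 retina to cornea, with log2 fold changes of 5.49 (SE 0.88), 3.33 (SE 0.42) and 2.21 (SE 0.48) for MYH7, MYH7B and MYH15 and limma adjusted p of 0.000456, 9.97e-05 and 0.00284. Replicates within E8 and E16 retina differed by more than 2-fold for MYH15, as did those of MYH7B within E8, and the widest gap was that of MYH7 within E16.

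The fast skeletal heavy chains lie in a tandem cluster, which in GRCg7b runs MYH13, MYH1D, MYH1F, MYH1A, MYH1B, MYH1E, MYH1C and MYH1G. Such neighbours are near-identical copies, and the split of reads among them is uncertain. MYH1B was at 0 in E8 retina, 10.5 and 14.7 in E16, 77.7 and 49.97 in E18 and 751 and 560.1 in cornea, a log2 fold change of 3.36 (SE 0.37, limma adjusted p = 4.20e-05) between the E18 tissues. MYH1A followed MYH1B within retina, with 0 in E8, 3.15 and 8.99 in E16 and 37.6 and 21.2 in E18, but stood at 36.9 and 50.4 in cornea and was not called there (log2 fold change 0.59, SE 0.52, limma adjusted p = 0.330). MYH13 lay between 3.92 and 22.1 in all 8 libraries, MYH1C reached 51.7 in cornea replicate 1 and 9.83 in replicate 2, and MYH1E reached 11.1.

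The proteins that bind and hold the thick filament separated by paralog. MYBPC3, the cardiac myosin binding protein C, was at 0.586 and 1.96 in E8, 64.1 and 67.0 in E16, 68.9 and 59.8 in E18 retina and 315 and 210.1 in cornea, and was called higher in cornea (log2 fold change 1.99, SE 0.39, limma adjusted p = 0.00153). MYBPC1, the slow skeletal paralog, was at 97.8 and 94.1 in E8, 1162 and 1284 in E16, 887 and 929 in E18 retina and 1323 and 819 in cornea, where the replicates enclosed the E18 retina values (log2 fold change 0.20, SE 0.22, limma adjusted p = 0.439). Without cornea replicate 2, MYBPC1 was called higher in cornea (log2 fold change 0.54). Of the myomesins, MYOM1 was at 9.96 and 9.80, 71.5 and 58.0, and 50.1 and 37.9 in retina by age and at 400.3 and 359 in cornea. MYOM2 was at 22.3 and 11.8, 142 and 108, and 160.4 and 142 in retina and at 212 and 177 in cornea, a difference from E18 retina that was not called. MYOM3 was at 60.3 and 68.6, 673 and 889, and 695 and 698 in retina and at 398 and 237 in cornea. The E18 cornea thus held 8.53-fold more MYOM1 than E18 retina and 0.442-fold as much MYOM3 (limma adjusted p = 1.47e-05 and 0.00360). Of the kinases that phosphorylate the regulatory light chain, MYLK3, the cardiac enzyme, was at 620.5 and 380.3, 265 and 273, and 185 and 214 in retina and at 456 and 383 in cornea, and MYLK2, the skeletal enzyme, stayed at or under 20.3 everywhere.

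At the Z disc, alpha-actinin and the calsarcins differed in pattern. ACTN2, the sarcomeric alpha-actinin, which in rodents is also found in dendritic spines of neurons, was at 39.8 and 41.2 in E8, 987 and 1304 in E16, 2849 and 2399 in E18 retina and 2053 and 2260.2 in cornea. Both cornea values were under both E18 retina values, but the log2 fold change of -0.28 (SE 0.17) was not called (limma adjusted p = 0.179). MYOZ1, the calsarcin of fast fibres, was at 0 and 0.980 in E8, 77.8 and 92.3 in E16, 75.2 and 67.4 in E18 retina and 16.6 and 14.7 in cornea, and was lower in cornea (log2 fold change -2.12, SE 0.41, limma adjusted p = 0.00142). MYOZ2, the slow and cardiac calsarcin, was at 0.980 to 8.17 in E8 and E16 retina, 27.6 and 20.4 in E18 retina and 808 and 656 in cornea, and was higher there (log2 fold change 4.88, SE 0.52, limma adjusted p = 3.38e-05). MYOZ3 was at 8.20 or less in retina and at 77.5 and 54.0 in cornea. DES, the intermediate filament protein that ties myofibrils together, was at 2.27 to 19.6 in the 6 retina libraries and at 522 and 439.8 in cornea (log2 fold change 6.62, SE 0.55, limma adjusted p = 7.07e-06). The 4 retina libraries in which ACTN2 was high thus had DES far under its cornea level.

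All 3 calcium store and membrane genes were higher in cornea than in E18 retina, and each also had a course of its own in retina. CASQ2, the cardiac calsequestrin, was at 24.6 and 10.8 in E8, 93.6 and 142 in E16, 117 and 119 in E18 retina and 804 and 719.8 in cornea. SRL, or sarcalumenin, a glycoprotein of the sarcoplasmic reticulum lumen, was at 11.1 and 5.88, 94.6 and 71.9, and 89.0 and 84.8 in retina by age and at 585 and 687 in cornea. Both were raised in the later retina and raised again in cornea, by log2 fold changes of 2.68 (SE 0.38) and 2.85 (SE 0.33) between the E18 tissues (limma adjusted p = 0.00022 and 6.12e-05). MLIP, which encodes a lamin-interacting protein enriched in muscle, was highest in E8 retina at 699.6 and 1239.7, fell to 400.5 and 249 in E16 and to 25.1 and 19.7 in E18 retina, and was at 184 and 154 in cornea.

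The tropomyosins and the smooth muscle and non-muscle genes are also used by cells without sarcomeres, and TPM1, TPM3, TPM4, MYH9, MYH10 and ACTN1 were at 183 normalized counts or more in every library. TPM1 was at 786 and 764, 1273 and 1305, and 1287 and 1227 in retina by age and at 8965 and 7855 in cornea. TPM3 was at 3271 and 3290.0, 2718 and 2859, and 2059 and 2121 in retina and at 9082 and 8309 in cornea, although TPM3 is also an older name of TPM2 in the chicken annotation and the row may hold either gene. TPM4 was at 1134 and 957, 381 and 377, and 183 and 215 in retina and at 2365 and 2582 in cornea. All 3 were higher in cornea, by log2 fold changes of 2.06 to 3.63 from E18 retina. MYH9, the heavy chain of non-muscle myosin IIA, was at 1597 to 3463 in retina and at 18261 and 18659 in cornea, while MYH10, that of non-muscle myosin IIB, was at 12429 and 13387 in E8, 5964 and 5665 in E16, 7628 and 5443 in E18 retina and 4951 and 4976 in cornea. MYH9 rose from E18 retina to cornea by 3.09 on the log2 scale (SE 0.12, limma adjusted p = 9.51e-08), and MYH10 was not called (log2 fold change -0.38, SE 0.15, limma adjusted p = 0.0539). Without E18 retina replicate 2, MYH10 was called lower in cornea (log2 fold change -0.62).

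Of the 8 smooth muscle and non-muscle genes, 5 were higher, 1 lower and 2 not called in cornea against E18 retina. Among all genes tested 36.9% were higher and 34.5% lower. The higher ones were ACTN1, LMOD1, MYH9, MYL9 and MYLK4, the last of which passed the filter through cornea alone. MYH11, the smooth muscle heavy chain, was at 1836 and 676 in E8, 109 and 193 in E16, 697 and 512 in E18 retina and 839 and 808 in cornea, and was not called between the E18 tissues (log2 fold change 0.46, SE 0.44, limma adjusted p = 0.365). MYL9, the regulatory light chain of smooth and non-muscle myosin, was at 60.1 to 173 in retina and at 1035 and 1249 in cornea. MYLK, the smooth muscle light chain kinase, was at 311 and 258, 1002 and 1212, and 3327 and 2569.8 in retina by age and at 1384 and 2075 in cornea. MYL9 was higher in cornea (log2 fold change 4.14, SE 0.21, limma adjusted p = 3.84e-07), and MYLK was lower (-0.79, SE 0.22, limma adjusted p = 0.0112). The call for MYLK was lost without E18 retina replicate 1 (log2 fold change -0.60) and without cornea replicate 1 (-0.49). ACTN1, the non-muscle alpha-actinin, was at 692 to 1556 in retina and at 5944 and 5698 in cornea, and LMOD1, the smooth muscle leiomodin, was at 1.76 to 50.7 in retina and at 146 and 138 in cornea. Counts for MYLK4 stayed at or under 62.7.

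Muscle genes outside the name families were read from 4 further lists. Of 17 other sarcomere and chaperone genes, 13 were higher, 2 lower and 2 not called in cornea against E18 retina, where 36.9% of all genes were higher and 34.5% lower. SMYD1, a methyltransferase needed for sarcomere assembly, was at 0 to 4.20 normalized counts in retina and at 714 and 423 in cornea, and FHL1, a LIM protein of muscle, was at 2.10 to 19.6 in retina and at 1491 and 1398 in cornea. MB, the oxygen store myoglobin, was at 0 to 12.7 in retina and at 227 and 270.2 in cornea. The 2 lower genes were MYPN, which tethers the Z disc, with 121.9 and 99.0 in E8, 756 and 793 in E16, 1446 and 1246 in E18 retina and 70.1 and 60.2 in cornea, and KLHL40, a stabilizer of thin filament proteins, with 9.96 and 6.86, 199.7 and 307, and 595 and 589.8 in retina and 107 and 99.5 in cornea.

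Of 14 tested genes of excitation and calcium release, 6 were higher, 3 lower and 5 not called, no larger a share than the 71.4% of all genes called. The higher genes included the dihydropyridine receptor gene CACNA1S, at 6.54 to 17.6 in retina and 321 and 279 in cornea, and the end plate genes CHRNA1, CHRND, CHRNG, MUSK and RAPSN. CHRNG, the embryonic acetylcholine receptor subunit, was at 0 to 2.45 in retina and at 79.3 and 99.5 in cornea, and MUSK, the kinase that organizes the end plate, was at 0 to 0.817 in retina and at 57.2 and 51.6 in cornea. The lower genes were ATP2A2, JPH1 and RYR3. Of 9 tested precursor and fusion genes, 6 were higher and 3 lower in cornea, the lower ones being MEF2C, MEF2D and JAM3, and of 8 further smooth muscle genes 4 were higher, 2 lower and 2 not called. Among the latter TAGLN, an actin-binding protein of smooth muscle, was at 0.757 to 12.3 in retina and at 1802 and 2026 in cornea. CALD1, MYOCD and VCL were the other higher smooth muscle genes, and SMTN and SYNPO2 the lower ones.

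Markers of other tissues in and around the eye are set against the 36.9% of all genes that were higher and the 34.5% that were lower in cornea than in E18 retina. Sclera and cartilage markers were higher for 4, lower for 3 and not called for 1 of 8 tested, and summed to 203 to 335 RPM in retina and to 854 and 640.5 in cornea, with COL2A1 listed at 0 in every library. Most of those reads in cornea were on COL11A1, at 21270 and 16210 normalized counts, and SOX9 led in E8 retina, at 5434 and 4221. Pericyte and vessel wall markers were higher for 6 of 6 and summed to 29.6 to 193.5 in retina and to 172.5 and 170.3 in cornea. MCAM made up most of the E8 retina sums, at 3317 and 4951 normalized counts, with no other gene of the list over 81.3 there. Endothelial markers were higher for 5 and lower for 1 of 6, with sums of 96.0 to 294 in retina and 165 and 146 in cornea, and without KDR, the lower one, of 1.91 to 20.8 in retina and 149 and 134.5 in cornea. For the pigment epithelium of retina, iris and ciliary body 2 were higher, 2 lower and 4 not called of 8, with sums of 30.5 to 131 in retina and 70.6 and 67.3 in cornea. The higher ones were MITF, at 1730 and 1753 normalized counts in cornea and 511 and 503.5 in E18 retina, and MLANA, at 27.7 and 34.4 and at 6.27 and 0. The lower ones were DCT and OCA2. TYR and TYRP1, not called, were at 3.69 to 17.2 in cornea, and PMEL was listed at 0 throughout. Lens markers were higher for 3, lower for 1 and not called for 4 of 8, with sums of 5.39 to 13.9 in retina and 26.3 and 40.5 in cornea. Schwann cell and nerve markers were higher for 1, lower for 3 and not called for 1 of 5, with sums of 30.5 to 572 in retina and 231 and 434 in cornea. Red blood cell markers summed to 0 to 0.812 in retina and to 0.958 and 0.981 in cornea. That sum rests on HBE and HBZ, as HBAD, HBAA and SLC4A1 were listed at 0 in every library, so it is a poor measure of blood. The part of any of these tissues in the muscle gene levels was not tested.

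Of the 52 genes, 12 had their highest group mean in retina (4 in E8, 5 in E16 and 3 in E18), and 40 in cornea. In that order the shares were 7.69%, 9.62%, 5.77% and 76.9%. Over all genes tested they were 30.1%, 13.4%, 21.1% and 35.4%. The 40 include the 11 genes that passed the filter through cornea alone. They also include MYH1C and MYH1E, which were not tested, so the shares are not like for like. The 4 that peaked in E8 were MLIP, MYLK3, MYH10 and MYH11, and MYH13 was low throughout. Leaving out MYLK3, MYH10, MYH11 and MYH13, the remaining 8 were plotted together, a choice made after their values were seen. ACTN2, MYBPC1, MYOM3, LMOD3, MYOZ1 and MYLK were low in E8 retina and high in E16 and E18 retina. LMOD3, the skeletal leiomodin, was at 4.69 and 8.82 in E8, 238 and 361 in E16, 262 and 276 in E18 retina and 122 and 94.6 in cornea. It was lower in cornea than in E18 retina (log2 fold change -1.32, SE 0.35, limma adjusted p = 0.00824), a call that was lost without cornea replicate 2 (-1.14, limma adjusted p = 0.0587). The log2 fold change of MYOM3 was -1.18 (SE 0.27, limma adjusted p = 0.00360). MYL4 and MLIP, in contrast, were already high at E8, and MLIP was the only gene among the 8 to fall through all 3 retinal stages.

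**Figure D4:**
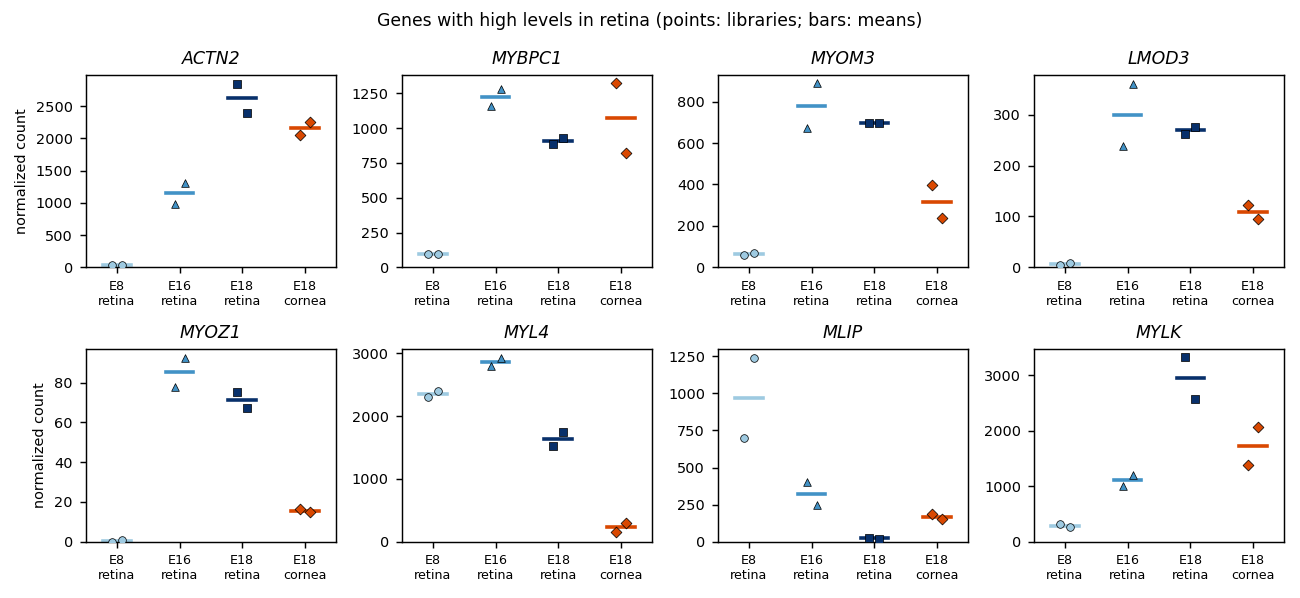
Normalized counts of ACTN2, MYBPC1, MYOM3, LMOD3, MYOZ1, MYL4, MLIP and MYLK in each library (points) with group means (bars), on axes that start at 0. ACTN2 goes from 39.8 and 41.2 in E8 to 2849 and 2399 in E18 retina, while MLIP goes from 699.6 and 1239.7 to 25.1 and 19.7.

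The retinal time points ask how these genes change as the retina goes from dividing precursors to a layered tissue. Between E8 and E16, 29 of the 50 tested genes were called, with 23 raised and 6 reduced at E16, against 64.4% of all genes tested, 34.1% higher and 30.3% lower. The median log2 fold change was 0.71 over the 50 genes and 0.04 over all genes. Of the 39 striated genes tested, 18 were higher, 2 lower and 19 not called. ACTN2 rose by 4.77 on the log2 scale (SE 0.17, limma adjusted p = 1.73e-07), LMOD3 by 5.30 (SE 0.35, limma adjusted p = 3.76e-06), MYBPC1 by 3.66 (SE 0.22, limma adjusted p = 2.14e-06) and MYOM3 by 3.57 (SE 0.27, limma adjusted p = 7.41e-06). MYOZ1 had 1 read among the E8 libraries, and its read ratio of E16 to E8 was 234 (95% counting interval 41.6 to 9309). MYL1 and MYH1B had no read at E8 and were at least 6.12-fold and at least 4.29-fold higher at E16, against a floor of 3 reads. None of the 4 myogenic regulators was called between these stages by limma. MYF5, MYF6 and MYOG had at most 4 reads in any E8 or E16 library, too few for a call. MYOD1 lay at the threshold and was called without E8 replicate 2 (log2 fold change 1.26). The lower genes were MLIP (-1.56, SE 0.34, limma adjusted p = 0.00362), MYLK3, TPM4, MYH9, MYH10 and MYH11, of which MYLK3 (-0.85) was not called without E8 replicate 1 (-0.50) or without either E16 replicate (-0.83 and -0.87). MYH11 fell by 2.93 (SE 0.44, limma adjusted p = 0.000416), from E8 replicates that themselves stood at 1836 and 676.

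Muscle genes outside the name families were divided over the same interval. Of 17 other sarcomere and chaperone genes 10 were higher, 2 lower and 5 not called at E16, and of 14 genes of excitation and calcium release 5 were higher, 4 lower and 5 not called, against 34.1% higher and 30.3% lower of all genes. UNC45B, the chaperone that folds muscle myosin, was at 2.34 and 2.94 in E8, 103 and 115 in E16 and 92.7 and 78.0 in E18 retina, and at 173 and 157 in cornea. KLHL40, MYPN and UNC45B rose from E8 to E16 by 4.74, 2.81 and 4.92 on the log2 scale (limma adjusted p = 2.79e-06, 5.58e-06 and 1.93e-06). ATP2A2, the calcium pump of the endoplasmic and sarcoplasmic reticulum, which neurons also use, rose by 1.32 (limma adjusted p = 0.000287). CHRND, which encodes the delta subunit of the muscle acetylcholine receptor, went from 4.69 and 4.90 at E8 to 0 in both E16 libraries.

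Between E8 and E18, 33 of the 50 were called, with 24 raised and 9 reduced at E18, against 66.4% of all genes, 35.0% higher and 31.4% lower. The median was 1.02 over the 50 genes and 0.04 over all genes, and among the striated genes 19 were higher, 4 lower and 16 not called. This comparison shares the E8 libraries with that of E16 and E8 and the E18 libraries with the comparison of cornea, so the values stand side by side and are not separate observations. ACTN2 was higher by 5.98 (SE 0.17, limma adjusted p = 4.39e-08), LMOD3 by 5.17 (SE 0.35), MYOM3 by 3.42 (SE 0.27), MYLK by 3.37 (SE 0.22), MYBPC1 by 3.23 (SE 0.22) and MYOM2 by 3.14 (SE 0.34). Of the 4 myogenic regulators MYOD1 alone was called, higher by 1.04 (SE 0.36, limma adjusted p = 0.0311). That call was lost without E8 replicate 1 (0.70) and without E18 replicate 1 (1.23) or 2 (0.85). MLIP fell by 5.33 (SE 0.34, limma adjusted p = 2.47e-06), and the log2 fold changes of TPM4, MYLK3 and MYH10 were -2.39 (SE 0.16), -1.28 (SE 0.25) and -1.001 (SE 0.15). Against a floor of 3 reads, MYH1B was at least 21.7-fold higher and MYH1A at least 9.998-fold higher at E18, and TNNI1, with 1 read among the E8 libraries, had a read ratio of 119.7 (95% counting interval 21.0 to 4778). The share of genes called among the muscle set, 33 of 50, lay close to the 66.4% of all genes. Those 50 include the 11 that passed the filter through cornea alone. With only the 4 libraries compared, 30 of 37 were called, against 68.6% of all genes in that fit.

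Between E16 and E18, 14 of the 50 were called, with 9 raised and 5 reduced at E18, against 18.6% of all genes, 10.7% higher and 7.87% lower. MLIP fell by 3.77 on the log2 scale (SE 0.34, limma adjusted p = 0.00152). ACTN2 rose by 1.20 (SE 0.17, limma adjusted p = 0.00531), MYLK by 1.41 (SE 0.22, limma adjusted p = 0.00657), MYH1B by 2.24 (SE 0.37, limma adjusted p = 0.00759), MYH1A by 2.18 (SE 0.52, limma adjusted p = 0.0239) and TNNI1 by 2.56 (SE 0.45, limma adjusted p = 0.00903). The other higher genes were MYOZ2, ACTN1, MYH9 and MYH11, and the other lower genes were TPM3, TPM4, MYL9 and LMOD1. LMOD1 thus peaked at E16, with 34.7 and 50.7 against 1.76 and 1.96 at E8 and 13.8 and 19.7 at E18. The number of calls here fell when any E16 or E18 retina library was left out, and so did the share of all genes called. MLIP was the only one of the 14 called under each omission. MYOM3, LMOD3, MYBPC1, MYBPC3, CASQ2, SRL and ACTA1 were not called in this interval, with log2 fold changes of -0.43 to 0.07.

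Over the 39 striated genes tested the median absolute log2 difference between the cornea replicates was 0.249, against 0.25 over all genes tested, but the differences leaned to replicate 1: 28 of the 39 (71.8%) were higher there, against 49.4% of all genes, with a median signed difference of 0.173 against 0. In E8 retina, where many of these genes have few reads, the median absolute difference was 0.705 against 0.254 over all genes. In E16 retina it was 0.448 against 0.134, with 25.6% of the striated genes and 4.30% of all genes over 2-fold apart, and in E18 retina it was 0.241 against 0.122.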

How the data were processed

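Read counts per gene were made by the authors from stranded poly(A) libraries of whole tissue with STAR on galGal4 and featureCounts. The deposited values are a signal, the count divided by a DESeq2 size factor. The annotation release, the strand setting and the treatment of overlapping genes are not given in the sources used here. Each value times its size factor gave a whole number for 100% of values (tolerance 0.001), so reads were recovered. No sequence table was used here, and no sequences are shown.

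The main test was limma 3.58.1 (R 4.3.3) on log2(normalized count + 1), with 1 term per group, all 8 libraries, a trend in the prior variance and Benjamini-Hochberg adjustment over the 13194 genes that edgeR's filterByExpr kept (minimum count 10). Genes were called at an adjusted p under 0.05. Log2 fold changes carry the added 1 and understate changes of low genes. With 0 reads in a group, a bound was set against 3 reads in its shallower library. Read ratios are adjusted for size factors, and their 95% exact intervals, like the bounds, cover counting error only. RPM values were computed from recovered reads over all reads on genes, scaled to 1000000. Alternatives were edgeR 4.0.16 and DESeq2 1.42.0 on recovered reads, TMM scaling, other added constants, no filter, only the 4 libraries compared, a replicate block and leaving out each library. The fit was tested on simulated data. P-values rest on 2 libraries a group, described as biological duplicates.

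Genes with at least 100 normalized counts in a library and the 4 myogenic regulators are described by library, others by range. Gene lengths are not in the table, so reads were not corrected for length and a gene with the most reads is not thereby the most expressed. The genes, roles and lists were chosen with earlier results of these data known. Gene order was taken from RefSeq annotation of GRCg7b, which holds all 52 symbols, and no coordinates are given because the build differs. Replicates with the same number did not deviate together (correlations of -0.0539 to 0.0531 between groups), so the numbers were not taken to pair samples.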

Additional observations from a re-analysis of the deposited data

How the results depend on the processing

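Without the striated gene that had the most reads in each library, the summed striated level was 80.5 and 91.9 RPM in E8 retina, 197 and 235 in E16 retina, 207 and 215 in E18 retina and 1113 and 935 in E18 cornea. The order of the tissues was as before, and the E16 and E18 retina values overlapped. Of the counts of genes called, only that of E18 against E16 retina moved by over 1.5 times, and there leaving out 1 library at a time gave 1 to 17 genes against 14. With all libraries kept, its count lay between 10 and 20 under the other settings. The 20 were of 39 genes tested, when only the 4 libraries compared were used. In that fit the share of all genes called was also above the 18.6% of the main fit. Where 10 were called, the share of all genes called was also below 18.6%. With the replicate number as a block, 30, 14, 33 and 43 genes were called for E16 against E8, E18 against E16, E18 against E8 and cornea against E18 retina. The share of all genes called was slightly lower with the block than in the main fit for each of these comparisons. Of 928 log2 fold changes for 58 combinations of gene and comparison under 16 alternatives, none changed sign. The fold change could not move with no filter, only the 4 libraries compared, the replicate block, or omission of a library outside the comparison. Among these 58 combinations, calls were lost only when a library was left out. Calls made with all libraries and kept under every omission were 25 of 29, 1 of 14, 30 of 33 and 40 of 43 for the same comparisons. Depth limits the low genes: in the shallowest library 3 reads are 5.53 normalized counts.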
